A study of Homo sapiens with 12 samples.

Results

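Autophagy is the route by which a cell wraps part of its own cytoplasm in a double membrane and delivers it to lysosomes. A kinase complex starts the process, a lipid kinase complex marks the membrane, lipid-transfer and lipid-scrambling proteins let it grow, and a conjugation system attaches small proteins of the ATG8 family, the LC3 and GABARAP proteins, to its surface. Cargo receptors bind both the cargo and the ATG8 proteins, and glial cells use the route to clear protein aggregates, including those made from the amyloid precursor protein, APP.

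The genes described are a list of 37 members of this core machinery and its cargo receptors, taken by symbol. Of these, 35 were in the deposited table of 11178 genes, and all 35 were among the 11128 genes kept for testing. The kinase scaffold RB1CC1 and the lipid kinase PIK3C3 were not analysed here.

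The RNA came from U251-APP cells, which derive from a human astrocytic brain tumour (glioblastoma) and stably make a mutant APP. In the CTCF-A KO group (4 libraries), Cas9 and a pair of guide RNAs had removed the binding site of the insulator protein CTCF that is called CTCF-A. In the CTCF-B KO group (4 libraries), the site called CTCF-B had been removed in the same way. The WT group (4 libraries) holds U251-APP cells with neither deletion. All 3 groups carry the mutant APP, and a label on editing with Cas9 is entered for all 3, WT included. The knockouts went through puromycin selection and single-cell cloning. The labels do not say whether WT cells did, nor whether the libraries of a group are separate clones or cultures, so the p-values speak of the spread among these libraries alone, which may be technical. The positions of the deleted sites are not given in the labels and no gene was deleted, so the values of no gene check the deletion. The comparisons ask how expression differs after either site is lost.

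Values are log2 normalized expression, one per gene and library, and the number of reads behind them is unknown. The libraries differed in how values depended on GC content. The log2 gap between the 10% of genes with the highest and the 10% with the lowest GC content, each against its WT mean, was 1.01, 0.47, 0.69 and 0.06 in CTCF-A KO replicates 1 to 4, against -0.12 to 0.03 in CTCF-B KO and -0.15 to 0.09 in WT. CTCF-A KO replicate 4 therefore stood apart from the other 3 of its group, and results are also given with the GC and length trend of each library removed. Of the astrocyte and glioma markers, 7 of 10 were kept, with GFAP at 12.51 to 12.69 in CTCF-A KO, 12.77 to 12.87 in CTCF-B KO and 15.47 to 15.85 in WT, while S100B, AQP4 and ALDH1L1 were not among the genes kept. Of markers of cells the line should not hold, 0 of 6 of microglia and 0 of 5 of oligodendrocytes were kept, 1 of 4 endothelial (KDR, lower by log2 fold changes of -1.17 in CTCF-A KO cells and -0.84 in CTCF-B KO), 1 of 4 epithelial (KRT18, at -0.27 and -0.40 in the same order) and 3 of 5 neuronal. Of the neuronal ones NEFL averaged 15.80 in CTCF-A KO, 13.74 in CTCF-B KO and 15.28 in WT, SYT1 7.82, 8.52 and 7.81, and SNAP25 5.35, 5.96 and 5.53. The part of other cell kinds in the results was not tested.

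In CTCF-A KO, 9 of the 35 autophagy genes rose and 8 fell against WT (limma, Benjamini-Hochberg adjusted p under 0.05 over all genes tested), and 18 did not pass. That is 48.6% of the members, beside 62.9% of all genes tested, of which 31.8% were higher and 31.1% lower. In CTCF-B KO, 13 rose and 4 fell, again 48.6%, beside 39.4% of all genes, of which 18.9% were higher and 20.6% lower. The median log2 fold change of the members was 0.05 in CTCF-A KO cells and 0.13 in CTCF-B KO, against medians over all genes of 0.005 and 0.002. Changes were small: the members ran from -0.76 to 0.51 in CTCF-A KO and from -0.33 to 0.46 in CTCF-B KO, and none reached 1 on the log2 scale in either direction. Both comparisons use the same 4 WT libraries, so their values are given side by side and do not count as independent. In bulk RNA, fewer cells of a kind and less RNA per cell cannot be told apart.

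With every library shifted to the same median over all genes kept, which moves the median of all genes in CTCF-A KO to 0.087, the counts were 15 higher and 7 lower in CTCF-A KO cells and 12 higher and 2 lower in CTCF-B KO. The share of all genes called was not taken in this setting, so these counts cannot be set beside it. The count of 4 lower in CTCF-B KO was also 2 without CTCF-B KO replicate 1 or 3, or without WT replicate 1, 2 or 4. With the trend removed, 14 members were higher and 9 lower in CTCF-A KO, beside 61.8% of all genes called (31.7% higher and 30.1% lower), and 18 were higher and 5 lower in CTCF-B KO, beside 55.3% (29.5% higher and 25.8% lower). Groups without any overlap between libraries were found for 11 members in CTCF-A KO (7 above WT and 4 below), where 47.7% of all genes had none. In CTCF-B KO they were found for 23 members (17 above and 6 below), where 53.6% of all genes had none. Of the 17 calls in CTCF-A KO, 8 held under all 24 alternative settings, those of ULK1, BECN1, WIPI1, WDR45B, ATG7, ATG4A, GABARAPL1 and GABARAPL2. Of the 17 calls in CTCF-B KO, 12 held under all 21 alternatives.

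**Figure D1:**
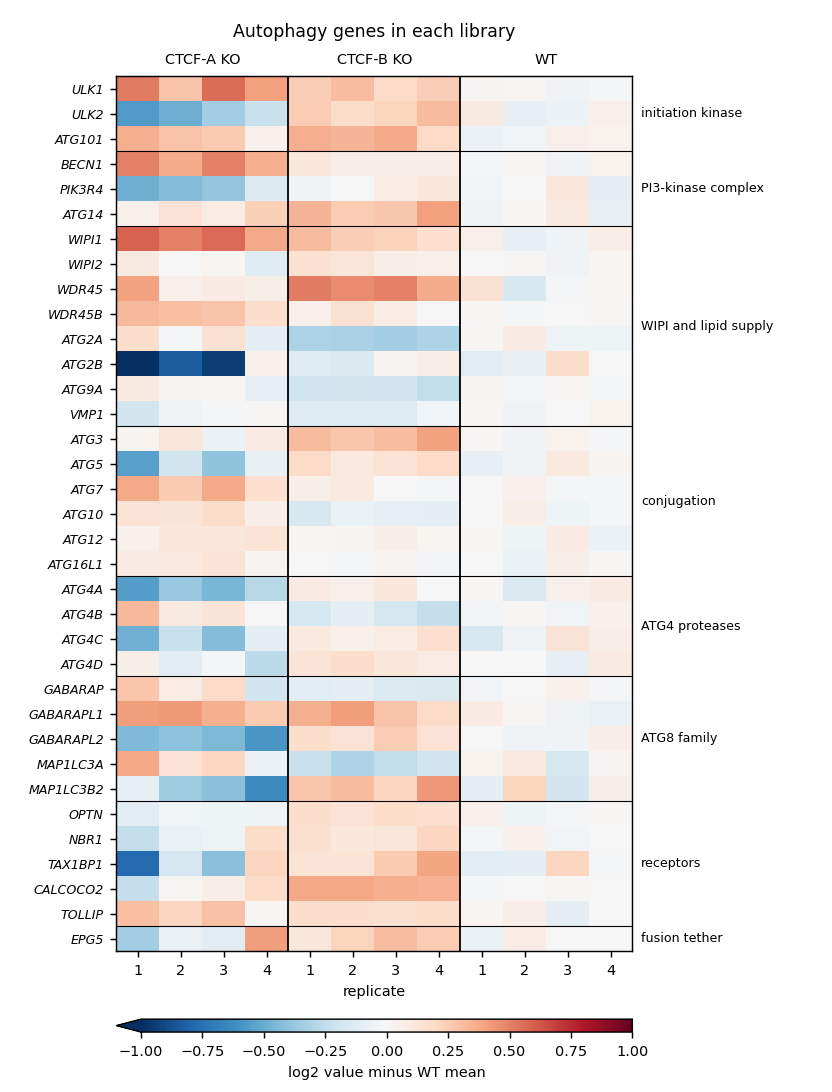
Each row is an autophagy gene and each column a library, and the colour gives the log2 value minus the WT mean, with values under -1 in the darkest blue. In CTCF-A KO replicate 4 the gene ATG2B was at 9.03, close to WT, whereas replicates 1 to 3 were at 7.68 to 8.15.

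The kinase complex that starts autophagy differed in both knockouts. ULK1, the main initiating kinase (ENSG00000177169, chromosome 12, 131894651 to 131923167, GRCh38), stood at 10.24, 10.01, 10.28 and 10.13 in CTCF-A KO, at 9.97, 10.03, 9.91 and 9.97 in CTCF-B KO and at 9.75, 9.74, 9.69 and 9.71 in WT (log2, replicates 1 to 4). Every library of either knockout lay above every WT library. The log2 fold change was 0.44 ± 0.06 (SE, n = 4) in CTCF-A KO (adjusted p = 2.97e-05) and 0.25 ± 0.06 in CTCF-B KO (adjusted p = 0.00389). With the trend removed these were 0.27 and 0.41, so the order of the 2 knockouts turned round: ULK1 was 0.19 higher in CTCF-A KO than in CTCF-B KO as deposited, and -0.14 with the trend removed.

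ULK2, the related kinase (ENSG00000083290, chromosome 17, 19770829 to 19867936), moved in opposite directions in the 2 knockouts. It was at 8.25, 8.33, 8.47 and 8.60 in CTCF-A KO, at 9.07, 9.0, 9.04 and 9.14 in CTCF-B KO and at 8.91, 8.74, 8.76 and 8.87 in WT. The WT libraries lay between those of the knockouts with no overlap on either side. It fell by 0.41 ± 0.07 in CTCF-A KO (adjusted p = 0.000409), a log2 fold change that was -0.23 with the trend removed and still passed. It rose by 0.24 ± 0.07 in CTCF-B KO (adjusted p = 0.0194), although the rise was lost when CTCF-B KO replicate 4, WT replicate 2 or WT replicate 3 was left out. CTCF-A KO minus CTCF-B KO was -0.65 ± 0.07 (adjusted p = 6.51e-06).

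Within a library, the log2 value of ULK1 minus that of ULK2 was 1.54 to 1.99 in CTCF-A KO, 0.82 to 1.04 in CTCF-B KO and 0.84 to 1.00 in WT. The range of CTCF-A KO lay above both others, and the other two overlapped. The transcripts have 64.2% (ULK1) and 46.4% (ULK2) GC, and with the trend removed the gap was 1.36 to 1.44 in CTCF-A KO, 0.93 to 1.11 in CTCF-B KO and 0.79 to 1.01 in WT. No test was made of this difference. ATG101, a subunit that holds the complex together, averaged 9.37 ± 0.14 in CTCF-A KO, 9.46 ± 0.09 in CTCF-B KO and 9.14 ± 0.05 in WT (log2, SD, n = 4 each). It rose by 0.32 ± 0.07 in CTCF-B KO (adjusted p = 0.00213) and by 0.24 ± 0.07 in CTCF-A KO (adjusted p = 0.00885), where it was 0.02 with the trend removed and no longer passed. ATG101 shares 19.2% of its exonic bases with an antisense gene. ATG13, a further subunit outside the list, fell by 0.31 ± 0.05 in CTCF-A KO (adjusted p = 0.000164) and was at -0.41 with the trend removed. Genes within 5 Mb of ATG13 lay at a median of -0.26 there, and -0.37 with the trend removed. In CTCF-B KO, ATG13 was at 0.13 ± 0.05 and did not pass (adjusted p = 0.0508), but was 0.18 and passed with the trend removed.

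Of the lipid kinase complex, BECN1 rose and PIK3R4 fell in CTCF-A KO, and ATG14 rose in CTCF-B KO, all as deposited. BECN1, the Beclin 1 scaffold of the complex (ENSG00000126581, chromosome 17, 42810134 to 42833350), was at 11.25, 11.12, 11.25 and 11.11 in CTCF-A KO, at 10.86, 10.81, 10.81 and 10.81 in CTCF-B KO and at 10.73, 10.76, 10.71 and 10.78 in WT. CTCF-A KO lay clear above both other groups, with a log2 fold change of 0.44 ± 0.04 against WT (1.35-fold, adjusted p = 3.31e-06), and 0.44 also with the trend removed. In CTCF-B KO the libraries lay above WT too, but by 0.08 ± 0.04, which did not pass (adjusted p = 0.188). Genes within 5 Mb of BECN1 lay at a median of 0.35 in CTCF-A KO cells and 0.10 in CTCF-B KO. BECN1 shares 12.4% of its exonic bases with CNTD1 and 4.68% with PSME3, both on the other strand.

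ATG14, the subunit that brings the complex to sites where autophagosomes form, averaged 7.95 ± 0.09 in CTCF-A KO, 8.14 ± 0.07 in CTCF-B KO and 7.82 ± 0.07 in WT. It rose by 0.32 ± 0.06 in CTCF-B KO (adjusted p = 0.000993), and its change in CTCF-A KO, 0.13 ± 0.06, passed only with the trend removed, at 0.34. PIK3R4, the regulatory subunit, averaged 8.45 ± 0.16 in CTCF-A KO, 8.85 ± 0.07 in CTCF-B KO and 8.82 ± 0.08 in WT. It fell by 0.36 ± 0.07 in CTCF-A KO (adjusted p = 0.00104), but its log2 fold change was -0.10 with the trend removed, when it no longer passed (adjusted p = 0.0568). In CTCF-B KO it differed by 0.03 ± 0.07 (adjusted p = 0.759).

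The WIPI proteins bind the lipid mark. Of the 8 genes for them and for lipid supply, 2 rose and 1 fell in CTCF-A KO. In CTCF-B KO, 2 rose and 2 fell. The share called was below that of all genes in CTCF-A KO (62.9%) and above it in CTCF-B KO (39.4%). WIPI1 (ENSG00000070540, chromosome 17, 68420948 to 68457513) stood at 9.22, 9.14, 9.20 and 9.01 in CTCF-A KO, at 8.95, 8.88, 8.86 and 8.80 in CTCF-B KO and at 8.68, 8.55, 8.60 and 8.70 in WT. The 3 groups followed each other with no overlap. Its log2 fold change, 0.51 ± 0.06 in CTCF-A KO (1.43-fold, adjusted p = 1.03e-05), was the highest of the members in that comparison, and it was 0.24 ± 0.06 in CTCF-B KO (adjusted p = 0.00532). Of the exonic bases of WIPI1, 24.3% are shared with ARSG on the other strand, and since the strand setting of the counting is not given in the sources used here, reads of such pairs cannot be told apart.

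WDR45, another protein of the WIPI family, made by a gene on chromosome X, averaged 7.59 ± 0.17 in CTCF-A KO, 7.90 ± 0.06 in CTCF-B KO and 7.44 ± 0.12 in WT. Its rise of 0.46 ± 0.09 in CTCF-B KO (adjusted p = 0.000898) was the highest of the members there, whereas 0.15 ± 0.09 in CTCF-A KO did not pass (adjusted p = 0.151). It shares 13.9% of its exonic bases with PRAF2 on the same strand. WDR45B averaged 12.28 ± 0.07 in CTCF-A KO, 12.08 ± 0.06 in CTCF-B KO and 12.01 ± 0.01 in WT. It rose by 0.27 ± 0.04 in CTCF-A KO (adjusted p = 0.00016; 0.14 with the trend removed, which passed), beside a median of 0.41 over the genes within 5 Mb, and 0.07 ± 0.04 in CTCF-B KO did not pass. WIPI2, which brings the conjugation machinery to the membrane, averaged 11.34 ± 0.09 in CTCF-A KO, 11.44 ± 0.04 in CTCF-B KO and 11.34 ± 0.02 in WT and passed in neither comparison with WT as deposited. It passed in both with the trend removed, at -0.12 in CTCF-A KO cells and 0.16 in CTCF-B KO.

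ATG2B, one of a pair of lipid-transfer proteins (ENSG00000066739, chromosome 14, 96279202 to 96363870), had the largest fall of the members. It was at 7.68, 8.15, 8.04 and 9.03 in CTCF-A KO, at 8.86, 8.84, 9.01 and 9.05 in CTCF-B KO and at 8.88, 8.91, 9.16 and 8.99 in WT. Replicates 1 to 3 of CTCF-A KO lay below every other library and replicate 4 lay within the WT range. The log2 fold change in CTCF-A KO was -0.76 ± 0.21 (adjusted p = 0.00668), but it was -1.03 without replicate 4 (adjusted p = 8.9e-07), 0.05 when replicate 4 stood alone for CTCF-A KO (adjusted p = 0.764) and -0.39 with the trend removed. In CTCF-B KO it was -0.04 ± 0.21 (adjusted p = 0.896).

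ATG2A, the paralogous lipid-transfer protein, averaged 10.35 ± 0.13 in CTCF-A KO, 9.97 ± 0.02 in CTCF-B KO and 10.30 ± 0.06 in WT. It fell by 0.33 ± 0.06 in CTCF-B KO (adjusted p = 0.000751), was -0.12 with the trend removed, and did not pass in CTCF-A KO (0.05 ± 0.06), where it was -0.13 and passed with the trend removed. ATG9A, the lipid scramblase of the vesicles that seed the membrane, averaged 10.56 ± 0.07 in CTCF-A KO, 10.34 ± 0.03 in CTCF-B KO and 10.55 ± 0.02 in WT. It fell by 0.21 ± 0.04 in CTCF-B KO (adjusted p = 0.0014), beside a median of -0.17 over the genes within 5 Mb, and shares 38.8% of its exonic bases with another gene on the same strand. In CTCF-A KO it did not pass as deposited (0.01 ± 0.04) and was -0.15 and passed with the trend removed. VMP1, a scramblase of the endoplasmic reticulum, averaged 11.99 ± 0.09 in CTCF-A KO, 11.94 ± 0.05 in CTCF-B KO and 12.05 ± 0.03 in WT and passed in neither comparison as deposited, but in both with the trend removed, at 0.11 in CTCF-A KO cells and -0.12 in CTCF-B KO.

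**Figure D2:**
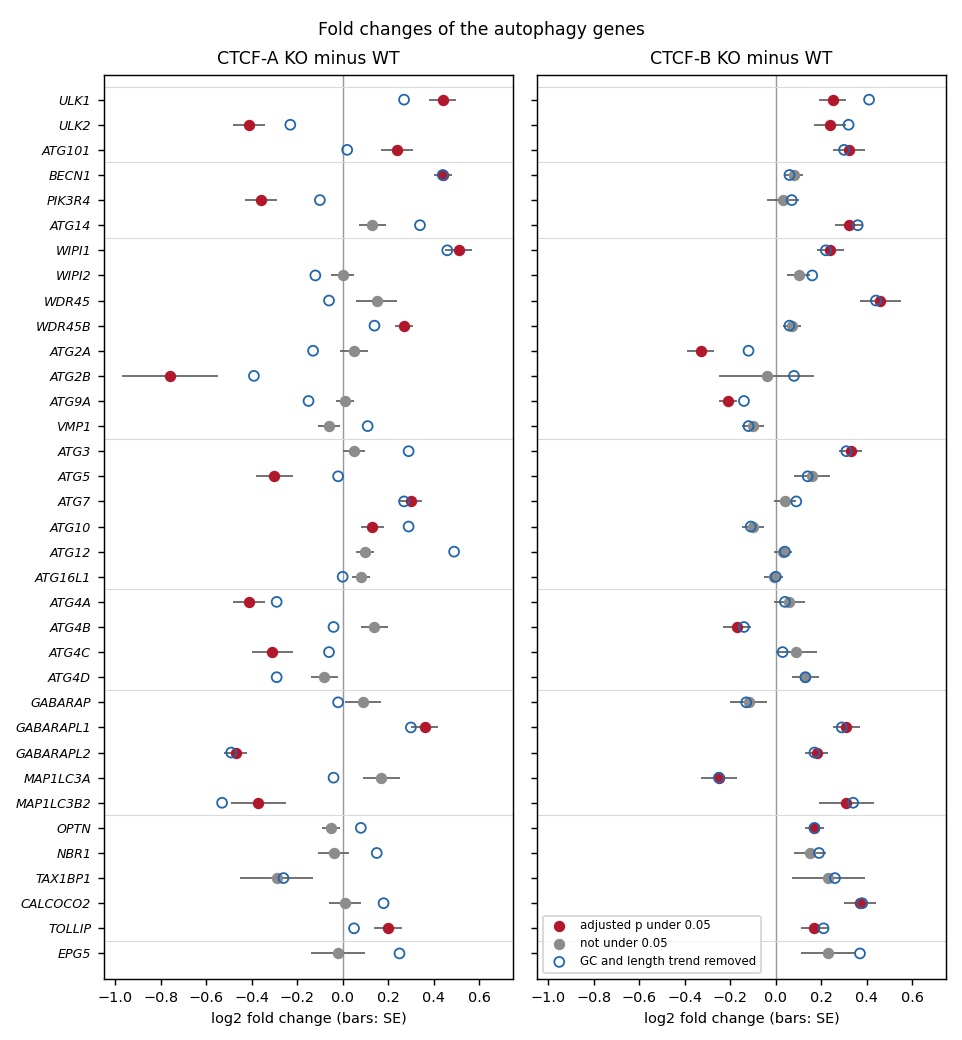
Filled points give each autophagy gene's log2 fold change with its SE, in CTCF-A KO minus WT on the left and CTCF-B KO minus WT on the right, and open circles the fold change with the GC and length trend removed. In CTCF-A KO, BECN1 is at 0.44 in both forms, while ATG5 is at -0.30 as deposited and -0.02 with the trend removed.

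Among the 6 conjugation enzymes, 2 rose and 1 fell in CTCF-A KO, and 1 rose in CTCF-B KO. ATG7, the activating enzyme at the head of both conjugation branches, averaged 9.81 ± 0.10 in CTCF-A KO, 9.55 ± 0.05 in CTCF-B KO and 9.51 ± 0.03 in WT. It rose by 0.30 ± 0.05 in CTCF-A KO (adjusted p = 0.000348), with no overlap between the groups, while 0.04 ± 0.05 in CTCF-B KO did not pass. It shares 18.1% of its exonic bases with VGLL4 on the other strand. ATG3, the enzyme that passes ATG8 proteins to the lipid, averaged 9.69 ± 0.07 in CTCF-A KO, 9.97 ± 0.06 in CTCF-B KO and 9.64 ± 0.03 in WT. It rose by 0.33 ± 0.05 in CTCF-B KO (adjusted p = 0.00013) and did not pass in CTCF-A KO (0.05 ± 0.05), where it was 0.29 and passed with the trend removed.

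ATG5, which joins ATG12 in a complex that directs the conjugation, averaged 9.46 ± 0.21 in CTCF-A KO, 9.92 ± 0.05 in CTCF-B KO and 9.77 ± 0.08 in WT. Its log2 fold change of -0.30 ± 0.08 in CTCF-A KO (adjusted p = 0.00791) stood beside a median of -0.28 over the genes within 5 Mb, and it was -0.02 with the trend removed and no longer passed. In CTCF-B KO it was 0.16 ± 0.08 and did not pass as deposited, and 0.14 and passed with the trend removed. ATG10, the enzyme that passes on ATG12, averaged 7.93 ± 0.04 in CTCF-A KO, 7.70 ± 0.04 in CTCF-B KO and 7.80 ± 0.04 in WT. It rose by 0.13 ± 0.05 in CTCF-A KO (adjusted p = 0.0386), a call that 12 of 24 alternatives lost and that was 0.29 with the trend removed. ATG12 averaged 10.19 ± 0.04 in CTCF-A KO, 10.12 ± 0.02 in CTCF-B KO and 10.09 ± 0.06 in WT and passed in neither comparison, although its change in CTCF-A KO, 0.10 as deposited, was 0.49 and passed with the trend removed. ATG16L1, which ties the complex to the membrane, averaged 9.63 ± 0.04 in CTCF-A KO, 9.54 ± 0.02 in CTCF-B KO and 9.55 ± 0.05 in WT and passed in neither.

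The 4 ATG4 proteases trim ATG8 proteins before conjugation and free them again from the membrane. ATG4A, on chromosome X, was at 8.27, 8.44, 8.36 and 8.54 in CTCF-A KO, at 8.90, 8.87, 8.92 and 8.81 in CTCF-B KO and at 8.83, 8.67, 8.87 and 8.90 in WT. CTCF-A KO lay below both other groups with no overlap, with a log2 fold change of -0.41 ± 0.07 against WT (adjusted p = 0.000196) that was -0.29 with the trend removed and passed there too. The median of its neighbours within 5 Mb was -0.02. ATG4C averaged 7.04 ± 0.18 in CTCF-A KO, 7.44 ± 0.05 in CTCF-B KO and 7.34 ± 0.12 in WT. Its log2 fold change in CTCF-A KO, -0.31 ± 0.09 (adjusted p = 0.0099), was -0.06 with the trend removed and then did not pass.

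ATG4B, the protease with the broadest action on ATG8 proteins, averaged 10.22 ± 0.14 in CTCF-A KO, 9.90 ± 0.06 in CTCF-B KO and 10.08 ± 0.03 in WT. It fell by 0.17 ± 0.06 in CTCF-B KO (adjusted p = 0.0374), beside a median of -0.27 over the genes within 5 Mb, and the call was lost in 10 of 21 alternatives. ATG4D averaged 9.87 ± 0.14 in CTCF-A KO, 10.08 ± 0.04 in CTCF-B KO and 9.95 ± 0.07 in WT and passed in neither comparison as deposited. With the trend removed it was -0.29 in CTCF-A KO cells and 0.13 in CTCF-B KO, and both passed. ATG4D shares 15.0% of its exonic bases with KRI1 on the other strand.

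The ATG8 genes changed most in GABARAPL2, GABARAPL1 and the LC3B genes. GABARAPL2 (ENSG00000034713, chromosome 16, 75566351 to 75577881) was at 9.29, 9.32, 9.28 and 9.15 in CTCF-A KO, at 9.91, 9.88, 9.99 and 9.88 in CTCF-B KO and at 9.73, 9.70, 9.70 and 9.80 in WT. The WT libraries lay between those of the knockouts with no overlap. It fell by 0.47 ± 0.05 in CTCF-A KO (to 0.72 of WT, adjusted p = 4.96e-06) and rose by 0.18 ± 0.05 in CTCF-B KO (adjusted p = 0.0102), and CTCF-A KO minus CTCF-B KO was -0.66 ± 0.05 (adjusted p = 1.68e-07). Its 28 neighbours within 5 Mb lay at a median of -0.52 in CTCF-A KO cells and 0.07 in CTCF-B KO.

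GABARAPL1, a GABARAP protein made by a gene on chromosome 12 (10212458 to 10223130), was at 10.12, 10.13, 10.06 and 9.97 in CTCF-A KO, at 10.06, 10.12, 9.99 and 9.90 in CTCF-B KO and at 9.79, 9.72, 9.67 and 9.64 in WT. All knockout libraries lay above all WT libraries. It rose by 0.36 ± 0.06 in CTCF-A KO (adjusted p = 0.000152) and by 0.31 ± 0.06 in CTCF-B KO (adjusted p = 0.000916). CTCF-A KO minus CTCF-B KO was 0.06, with a 95% interval of -0.07 to 0.18. The log2 value of GABARAPL1 minus that of GABARAPL2 was 0.78 to 0.83 in CTCF-A KO, -0.01 to 0.24 in CTCF-B KO and -0.15 to 0.06 in WT. CTCF-A KO lay above both other groups, a difference that was not tested, and with the trend removed it was at 0.75 to 0.79, against -0.02 to 0.23 in CTCF-B KO and -0.15 to 0.03 in WT.

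GABARAP was at 8.49, 8.29, 8.41 and 8.02 in CTCF-A KO, at 8.11, 8.12, 8.08 and 8.07 in CTCF-B KO and at 8.19, 8.21, 8.26 and 8.20 in WT. CTCF-A KO replicates 1 to 3 lay above WT and replicate 4 below it, CTCF-B KO lay below WT without overlap, and the change passed in neither comparison (0.09 ± 0.08 and -0.12 ± 0.08). GABARAP shares 30.5% of its exonic bases with another gene on the same strand and 25.2% with a gene on the other strand. MAP1LC3A, which encodes LC3A, was at 10.01, 9.77, 9.83 and 9.56 in CTCF-A KO, at 9.40, 9.31, 9.38 and 9.42 in CTCF-B KO and at 9.66, 9.72, 9.46 and 9.65 in WT. CTCF-B KO lay below WT without overlap, with a log2 fold change of -0.25 ± 0.08 (adjusted p = 0.0326), a call lost in 7 of 21 alternatives, while CTCF-A KO overlapped WT (0.17 ± 0.08, adjusted p = 0.0929).

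MAP1LC3B2 encodes a protein nearly the same as LC3B, and reads of the 2 genes can be hard to keep apart. Its coding sequence on chromosome 12 differs from that of MAP1LC3B on chromosome 16 at 2 of 378 bases, and 158 of the 511 windows of 150 bases in its transcript occur exactly in MAP1LC3B. The first 60 coding bases of both, from GENCODE release 29 (GRCh38, plus strand of each chromosome), show this, with the differing base in capitals:
MAP1LC3B2: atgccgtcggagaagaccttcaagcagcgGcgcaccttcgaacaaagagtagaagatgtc
MAP1LC3B: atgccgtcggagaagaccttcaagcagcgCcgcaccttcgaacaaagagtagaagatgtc

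MAP1LC3B2 (ENSG00000258102) was at 6.21, 5.94, 5.88 and 5.66 in CTCF-A KO, at 6.57, 6.61, 6.51 and 6.73 in CTCF-B KO and at 6.20, 6.52, 6.11 and 6.35 in WT. The knockouts did not overlap each other, and each overlapped WT. It fell by 0.37 ± 0.12 in CTCF-A KO (adjusted p = 0.0148) and rose by 0.31 ± 0.12 in CTCF-B KO (adjusted p = 0.0487), and 2 of 24 and 11 of 21 alternatives lost these calls. CTCF-A KO minus CTCF-B KO was -0.68 ± 0.12 (adjusted p = 0.000215).

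MAP1LC3B itself, which is outside the list, was at 10.20 to 10.28 in CTCF-A KO, 11.32 to 11.46 in CTCF-B KO and 10.95 to 11.02 in WT. It fell by 0.75 ± 0.04 in CTCF-A KO (adjusted p = 1.72e-08), beside a median of -0.48 over its neighbours within 5 Mb, and rose by 0.41 ± 0.04 in CTCF-B KO (adjusted p = 5.85e-06). How many reads the pair exchanged was not tested. The rest of the family is further apart, with 76.8% of coding bases the same in GABARAP and GABARAPL1, 63.0% in GABARAP and GABARAPL2 and 71.2% in MAP1LC3A and MAP1LC3B2.

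Levels of different genes were set side by side after division by transcript length, taken from the longest protein-coding transcript of each gene. The transformation of the values is not recorded and the transcripts in use are unknown, so levels between genes are approximate. The 6 ATG8 genes together came to 2171 to 2541 normalized units per kb in CTCF-A KO, 3068 to 3196 in CTCF-B KO and 2691 to 2827 in WT, with no overlap between the groups. GABARAPL2 took 25.7% ± 0.67 of that sum in CTCF-A KO, 30.5% ± 1.07 in CTCF-B KO and 30.6% ± 1.0 in WT (SD, n = 4 each). MAP1LC3B took 18.9% ± 1.58 in CTCF-A KO, 31.9% ± 0.85 in CTCF-B KO and 27.3% ± 0.83 in WT. MAP1LC3A took 23.8% ± 1.69 in CTCF-A KO, 13.4% ± 0.66 in CTCF-B KO and 18.1% ± 0.98 in WT. GABARAPL1 took 19.7% ± 0.54 in CTCF-A KO, 14.3% ± 0.71 in CTCF-B KO and 13.1% ± 0.54 in WT. The sums still did not overlap with the trend removed, at 2199 to 2288 in CTCF-A KO, 3078 to 3186 in CTCF-B KO and 2701 to 2822 in WT.

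**Figure D3:**
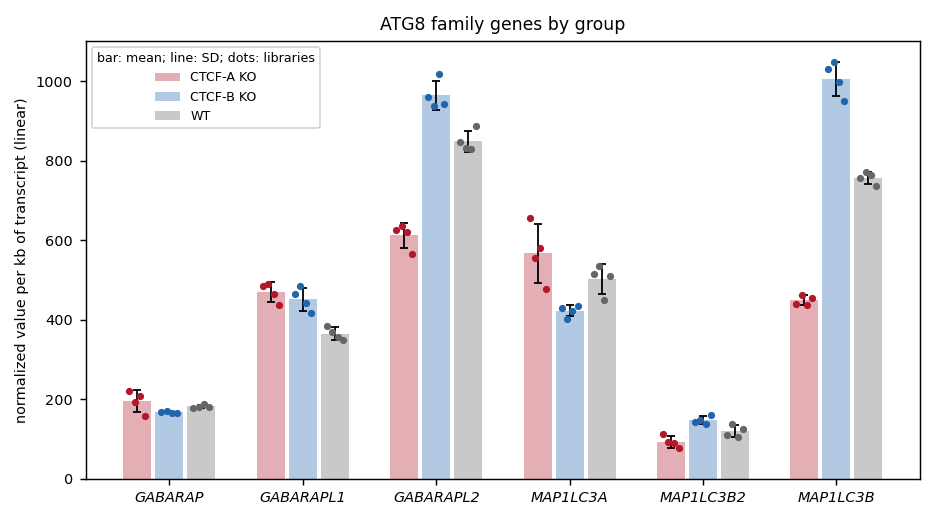
Bars show the mean normalized value per kb of transcript (linear scale) of 6 ATG8 family genes in CTCF-A KO, CTCF-B KO and WT, with the SD as a line and the 4 libraries as dots. MAP1LC3B lies at 438 to 463 in CTCF-A KO, 950 to 1048 in CTCF-B KO and 736 to 771 in WT.

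Of the 5 cargo receptors, TOLLIP passed in CTCF-A KO and OPTN, CALCOCO2 and TOLLIP in CTCF-B KO, in each case higher. Over all genes tested, 62.9% passed in CTCF-A KO, a larger share, and 39.4% in CTCF-B KO, a smaller one. CALCOCO2, the NDP52 receptor for bacteria and damaged mitochondria (chromosome 17, 48830988 to 48866522), was at 10.25, 10.50, 10.54 and 10.68 in CTCF-A KO, at 10.87, 10.87, 10.85 and 10.83 in CTCF-B KO and at 10.47, 10.49, 10.50 and 10.48 in WT. CTCF-B KO lay above every other library, with a log2 fold change of 0.37 ± 0.07 (1.29-fold, adjusted p = 0.000943), beside a median of 0.02 over its neighbours. CTCF-A KO lay on both sides of WT and did not pass as deposited (0.01 ± 0.07), but was 0.18 and passed with the trend removed (adjusted p = 0.000765).

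OPTN, optineurin, which binds ubiquitin on damaged mitochondria, was at 10.24, 10.33, 10.31 and 10.32 in CTCF-A KO, at 10.53, 10.50, 10.54 and 10.52 in CTCF-B KO and at 10.40, 10.31, 10.34 and 10.37 in WT. CTCF-B KO lay above the others without overlap, by 0.17 ± 0.04 against WT (adjusted p = 0.00323), and CTCF-A KO overlapped WT (-0.05 ± 0.04). TOLLIP, an adaptor that binds ubiquitin and ATG8 proteins, was at 10.81, 10.72, 10.80 and 10.52 in CTCF-A KO, at 10.68, 10.68, 10.67 and 10.69 in CTCF-B KO and at 10.53, 10.57, 10.42 and 10.51 in WT. Replicate 4 of CTCF-A KO lay within WT and the other 3 above it. TOLLIP rose by 0.20 ± 0.06 in CTCF-A KO (adjusted p = 0.0103), where it was 0.05 with the trend removed and no longer passed, and by 0.17 ± 0.06 in CTCF-B KO (adjusted p = 0.0352), a call lost in 8 of 21 alternatives.

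TAX1BP1, a receptor for ubiquitinated aggregates (ENSG00000106052, chromosome 7, 27739331 to 27844564), was at 9.91, 10.52, 10.27 and 10.90 in CTCF-A KO, at 10.82, 10.82, 10.95 and 11.08 in CTCF-B KO and at 10.58, 10.59, 10.90 and 10.67 in WT. Replicates 1 to 3 of CTCF-A KO lay below every WT library and replicate 4 level with the highest of them. It passed in neither comparison with WT (-0.29 ± 0.16 and 0.23 ± 0.16), and CTCF-A KO minus CTCF-B KO was -0.52 ± 0.16 (adjusted p = 0.0119). Without CTCF-A KO replicate 4 the change against WT was -0.45 and passed (adjusted p = 0.00344). NBR1, a receptor for aggregates and peroxisomes, was at 11.35, 11.52, 11.54 and 11.77 in CTCF-A KO, at 11.75, 11.69, 11.71 and 11.80 in CTCF-B KO and at 11.57, 11.63, 11.56 and 11.59 in WT. CTCF-B KO lay above WT without overlap, and neither comparison with WT passed (-0.04 ± 0.07 in CTCF-A KO cells and 0.15 ± 0.07 in CTCF-B KO), although both did with the trend removed, at 0.15 and 0.19 in the same order. EPG5, which tethers autophagosomes to lysosomes, averaged 8.17 ± 0.32 in CTCF-A KO, 8.42 ± 0.08 in CTCF-B KO and 8.19 ± 0.06 in WT and passed in neither, but in CTCF-A KO it was -0.17 without replicate 4 (adjusted p = 0.0394) and 0.42 with replicate 4 alone (adjusted p = 0.00109). EPG5 passed in both with the trend removed, at 0.25 in CTCF-A KO cells and 0.37 in CTCF-B KO.

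The spread between libraries was wider in CTCF-A KO than in the other groups. The median SD over the 35 members was 0.13 in CTCF-A KO, 0.05 in CTCF-B KO and 0.06 in WT. For 11 members replicate 4 of CTCF-A KO lay on the other side of the WT mean from the mean of replicates 1 to 3, and for GABARAP, NBR1, TAX1BP1 and EPG5 both were at least 0.1 away from it. ULK1, BECN1, WIPI1 and GABARAPL1 lay above the WT mean, and ATG4A, ULK2, GABARAPL2 and MAP1LC3B2 below it, in replicate 4 as in the others. Replicates 1 to 3 are the libraries with the wide GC gap given above. With the trend removed, replicate 4 alone against WT was at 0.05 for ATG2B, 0.23 for NBR1 and 0.23 for TAX1BP1, a setting chosen after seeing the data.

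**Figure D4:**
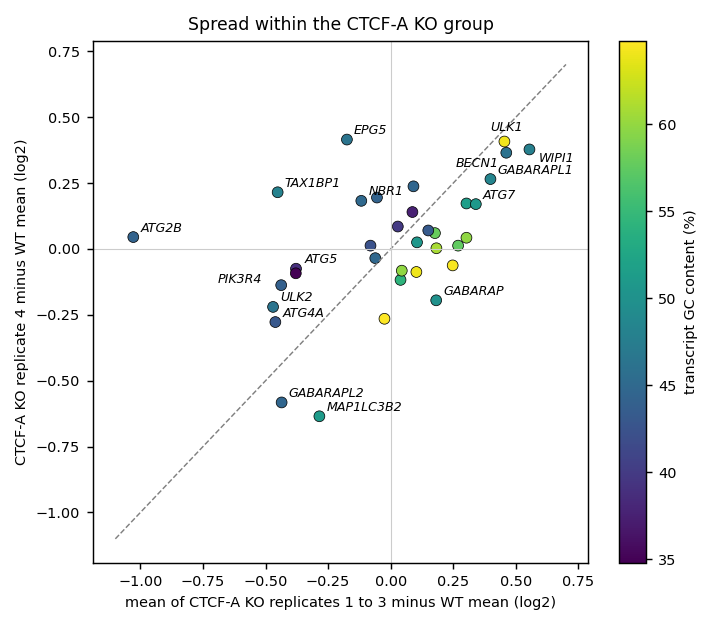
Each point is an autophagy gene, with the mean of CTCF-A KO replicates 1 to 3 minus the WT mean on the x axis, replicate 4 minus the WT mean on the y axis (both log2) and transcript GC content as colour. ATG2B lies at -1.03 and 0.05, whereas BECN1 lies at 0.46 and 0.36, near the dashed line of equal values.

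GC content moved with the calls. The median transcript GC content was 50.8% for the 9 members that rose in CTCF-A KO cells and 44.0% for the 8 that fell, beside 49.1% over all genes kept. In CTCF-B KO it was 47.8% for the 13 that rose and 62.4% for the 4 that fell. With the trends of GC content and length removed together, 5 members lost their calls in CTCF-A KO (ATG101, PIK3R4, ATG5, ATG4C and TOLLIP), 12 kept them and 11 gained one (ATG14, WIPI2, ATG2A, ATG9A, VMP1, ATG3, ATG12, ATG4D, NBR1, CALCOCO2 and EPG5). In CTCF-B KO all 17 kept their calls and 6 gained one (WIPI2, VMP1, ATG5, ATG4D, NBR1 and EPG5). The parts of GC content and of length cannot be told apart from these values.

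For some members the genes nearby had a shifted median in CTCF-A KO, which does not show that those genes moved together. The median log2 fold change of the genes within 5 Mb was at least 0.2 in size for 10 of the 35 members in CTCF-A KO and for 1, ATG4B, in CTCF-B KO. With the trend removed, 4 remained in CTCF-A KO by this measure, at BECN1, WDR45B and NBR1 on chromosome 17 (medians 0.26, 0.23 and 0.26) and at GABARAPL2 on chromosome 16 (-0.41). GABARAPL2 itself was at -0.49 and BECN1 at 0.44 on that scale. How many of all genes kept have neighbours with a median of this size was not counted. The counts of 10, 1 and 4 members therefore have no background beside them. BECN1 and NBR1 start at 42810134 and 43170481 on chromosome 17, so their windows cover mostly the same stretch and are not separate regions. The window of CALCOCO2, which starts at 48830988, overlaps theirs in part. NBR1 and CALCOCO2 did not follow their neighbours on chromosome 17 as deposited, at -0.04 and 0.01 beside 0.37 and 0.29. With the trend removed they lay nearer to them, NBR1 at 0.15 beside 0.26 and CALCOCO2 at 0.18 beside 0.19.

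Other members changed where their neighbours had medians near 0 as deposited. In CTCF-A KO, ULK1 was at 0.44 beside 0.03, ULK2 at -0.41 beside 0.00, ATG4A at -0.41 beside -0.02 and ATG2B at -0.76 beside 0.05. In CTCF-B KO, CALCOCO2 was at 0.37 beside 0.02, ULK1 at 0.25 beside 0.05 and OPTN at 0.17 beside 0.04. With the trend removed, in CTCF-A KO, ULK1 was at 0.27 beside -0.06, ULK2 at -0.23 beside -0.14, ATG4A at -0.29 beside 0.04 and ATG2B at -0.39 beside 0.02. In CTCF-B KO, CALCOCO2 was then at 0.38 beside 0.04, ULK1 at 0.41 beside 0.11 and OPTN at 0.17 beside 0.06. No test was made of these gaps.

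**Figure D5:**
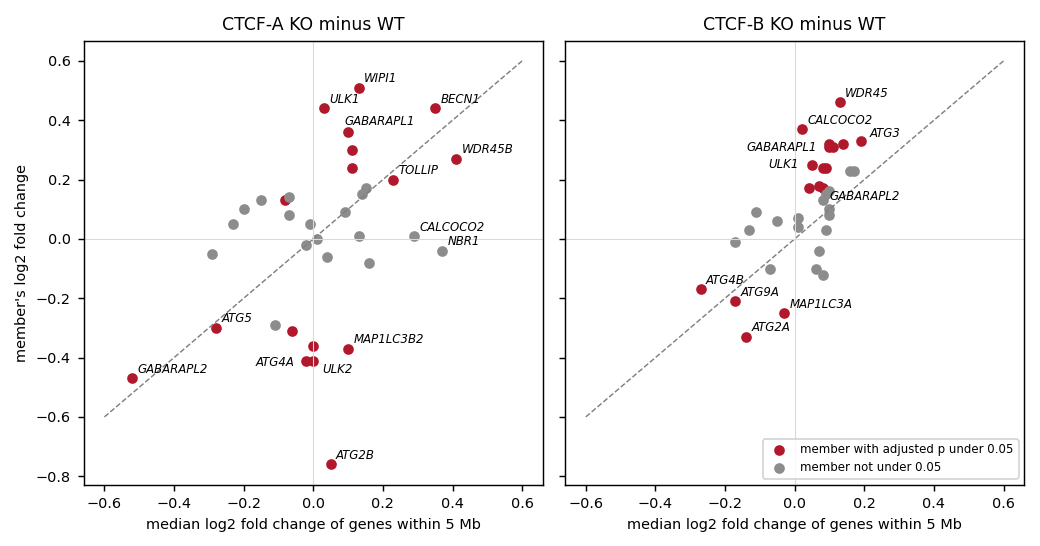
Each point is an autophagy gene, with the median log2 fold change of the other genes within 5 Mb on the x axis and its own log2 fold change on the y axis, for CTCF-A KO minus WT on the left and CTCF-B KO minus WT on the right. On the left GABARAPL2 lies at -0.52 and -0.47, near the dashed line of equal values, and ATG2B at 0.05 and -0.76, far below it.

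Between the knockouts, 27 of 35 members passed, 11 higher and 16 lower in CTCF-A KO than in CTCF-B KO, or 77.1%, beside 66% of all genes tested (33.4% higher and 32.6% lower). With the trend removed 9 were higher and 16 lower, beside 68.6% of all genes (33% higher and 35.6% lower). With library medians made equal, which moves the median of all genes in this comparison to 0.061, the split was 14 higher and 13 lower. The share of all genes called was not taken in that setting. Libraries did not overlap for 22 members, 10 higher and 12 lower in CTCF-A KO, where 53.5% of all genes had no overlap (28.3% higher and 25.3% lower). For ULK2, GABARAPL2 and MAP1LC3B2 the changes against WT had opposite signs and passed in both. Among the receptors, OPTN (-0.22), NBR1 (-0.19), TAX1BP1 (-0.52) and CALCOCO2 (-0.36) were lower in CTCF-A KO than in CTCF-B KO, and TOLLIP did not pass (0.03, 95% interval -0.10 to 0.16). NBR1 and TAX1BP1 were at 0.03 and -0.02 with replicate 4 standing alone for CTCF-A KO. ATG2A (0.38) and ATG9A (0.22) were higher in CTCF-A KO, and both were at -0.01 with the trend removed. Of the 27 calls, 8 held under all 24 alternatives, those of ULK2, BECN1, ATG5, ATG4A, GABARAPL2, MAP1LC3B2, OPTN and CALCOCO2.

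Promoter windows were searched for the E-box CACGTG, the palindrome bound by the lysosome and autophagy regulators TFEB, TFE3 and MITF, and for its form with a T before it, TCACGTG, on both strands. Windows of RefSeq (GRCh38.p14), from 250 bases before the transcription start to 50 after it, were at hand for 31 of 35 members. The E-box was found in 2 of 31 member windows (6.45%), beside 10.4% of the windows of all genes kept and 7.26% of all RefSeq windows. Both windows, those of ATG3 and ATG14, also held TCACGTG, found in 6.04% of the windows of genes kept. ATG3 and ATG14 are shown because they alone of the 31 members with a window carried the motif. Both rose in CTCF-B KO and did not pass in CTCF-A KO as deposited. With the trend removed both passed in CTCF-A KO too, ATG3 at 0.29 and ATG14 at 0.34, beside 0.31 and 0.36 in CTCF-B KO. The motif stands in capitals, the ATG3 stretch being chr3:112561948-112562007 and the ATG14 stretch chr14:55411819-55411878, both on the minus strand:
ATG3: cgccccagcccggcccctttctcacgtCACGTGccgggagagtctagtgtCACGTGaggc
ATG14: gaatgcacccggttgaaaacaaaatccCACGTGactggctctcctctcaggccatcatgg

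A match is a run of letters and no evidence of binding. The other 11 members that rose in CTCF-B KO as deposited had no E-box in this window. Neither had the 8 members with a window that rose or the 8 that fell in CTCF-A KO as deposited.

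Genes of the pathway outside the list were counted in 3 groups. Of 22 other core and receptor genes kept, 6 rose and 9 fell in CTCF-A KO, and 4 rose and 3 fell in CTCF-B KO (5 fell without CTCF-A KO replicate 4). That is 68.2% called beside 62.9% of all genes in CTCF-A KO, and 31.8% beside 39.4% in CTCF-B KO. In CTCF-B KO 8 were higher and 4 lower with the trend removed, or 54.5% beside 55.3% of all genes. SQSTM1, the p62 receptor for ubiquitinated cargo, rose by 1.40 ± 0.07 in CTCF-A KO cells and by 0.50 ± 0.07 in CTCF-B KO (adjusted p = 1.15e-08 and 0.000153), more than any member. BNIP3, a mitophagy receptor, fell by 0.85 ± 0.06 in CTCF-A KO and rose by 0.41 ± 0.06 in CTCF-B KO. WDFY3, a scaffold for aggregate clearance, fell by 1.36 ± 0.18 in CTCF-A KO, and RTN3, a receptor for tubules of the endoplasmic reticulum, fell by 0.35 ± 0.04 in CTCF-B KO. Neighbours within 5 Mb were not examined for BNIP3, WDFY3, RTN3 or the fusion and nutrient genes named below. Whether their stretches of chromosome moved with them was not tested.

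Of 15 genes for fusion with lysosomes, 7 rose and 3 fell in CTCF-A KO, and 3 rose and 4 fell in CTCF-B KO. The shares called were 66.7% beside 62.9% of all genes in CTCF-A KO, and 46.7% beside 39.4% in CTCF-B KO. Removing the trend gave 7 higher and 5 lower in CTCF-B KO, or 80.0% beside 55.3% of all genes, and 6 higher and 5 lower in CTCF-A KO. The count of 4 was 2 without CTCF-A KO replicate 2, CTCF-B KO replicate 2, 3 or 4, or WT replicate 1, 2 or 4. In CTCF-A KO the adaptor PLEKHM1 rose by 0.58 ± 0.05, the HOPS subunits VPS39 and VPS33A by 0.22 ± 0.04 and 0.24 ± 0.05, and the SNARE STX17 fell by 0.63 ± 0.13. In CTCF-B KO the SNARE YKT6 rose by 0.39 ± 0.05 and the GTPase RAB7A by 0.24 ± 0.05, while VPS39 fell by 0.35 ± 0.04 and the phosphatase INPP5E by 0.25 ± 0.06.

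Of 26 genes that control nutrient and energy sensing, 16 were called higher and 6 lower in CTCF-A KO, and 6 rose and 4 fell in CTCF-B KO. In CTCF-A KO 61.5% were higher, beside 31.8% of all genes, and 23.1% lower, beside 31.1%. In CTCF-B KO 38.5% were called, beside 39.4% of all genes, and 57.7% beside 55.3% with the trend removed (10 higher and 5 lower). The count of 6 lower was 3 without WT replicate 2 and 2 without WT replicate 3, and 9 were higher with replicate 4 standing alone for CTCF-A KO. RRAGD, a Rag GTPase that signals amino acids to mTORC1, rose by 1.14 ± 0.05 in CTCF-A KO (adjusted p = 4.1e-09) and fell by 0.30 ± 0.05 in CTCF-B KO (adjusted p = 0.000551). FLCN, its partner folliculin, rose by 0.39 ± 0.05 in CTCF-A KO cells and by 0.35 ± 0.05 in CTCF-B KO. TSC2, an inhibitor of mTORC1, rose by 0.70 ± 0.06 and PRKAG2, a subunit of the energy sensor AMPK, fell by 0.75 ± 0.05 in CTCF-A KO. MITF, a transcription factor of the TFEB family, fell by 1.33 ± 0.11 in CTCF-B KO (adjusted p = 9.13e-07). In CTCF-A KO MITF rose by 0.45 ± 0.11 (adjusted p = 0.00366) and was at 0.79 with the trend removed. PRKAB1, another AMPK subunit, rose by 0.34 ± 0.06 in CTCF-B KO and by 0.27 ± 0.06 in CTCF-A KO.

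In WT, per kb of transcript, WDR45B (1593 ± 14 normalized units per kb, SD, n = 4) and VMP1 (1562 ± 34.9) were the highest members, which differed by less than the SD of VMP1 and stood at percentiles 93 and 92.8 of the genes kept. GABARAPL2 and BECN1 came next. The limits given above for levels per kb hold for these orders too. BECN1 was at 1103 ± 60.5 in CTCF-A KO and 814 ± 19.5 in WT, and GABARAPL2 at 612 ± 32.1 in CTCF-A KO and 849 ± 26.4 in WT, so that their order turned round. In WT the 2 overlap when 1 SD is allowed on either side. The lowest in WT were ATG14 (48.0 ± 2.3), ATG2B (37.0 ± 3.3) and EPG5 (23.0 ± 0.9), at percentiles 15.5, 10.9 and 4.62.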

How the data were processed

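Total RNA of 12 libraries was sequenced as read pairs, per the labels' protocols. Per the submitters' processing notes, Trimmomatic 0.33, featureCounts, DESeq2 and the build GRCh38.p7 were used. The aligner, annotation and strand setting are not given in the sources used here. The values the authors deposited are normalized and on a log2 scale already, from 1.34 to 17.97, as the values themselves show. The transformation is not recorded and depth is unknown, so no counting interval can be given. The values were used as they stood, with no pseudocount. Genes of at least 10 on the linear scale in at least 4 libraries were kept, which removed 50. A single limma 3.58.1 fit (R 4.3.3) of the 3 groups over 12 libraries, with trended variance, gave each contrast two-sided with Benjamini-Hochberg adjustment, called under 0.05. The procedure was tested on simulated data. The GC and length trend was removed per library with splines (5 and 4 degrees of freedom), known for 99.7% of genes. Positions, GC content and length came from GENCODE release 29, promoters from RefSeq.

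The members and lists were chosen with earlier results of these data known. Library values were given for members with a called log2 change of at least 0.5 in any comparison, all ATG8 genes and receptors, and those of ULK1, BECN1 and ATG4A were added after their values had been seen. Up to 4 genes per pathway list were named, those with the smallest adjusted p. ATG13 was named besides them, after its values had been seen. Alternatives are given in the closing section.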

Additional observations from a re-analysis of the deposited data

Results flagged for a closer look

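Each group of 4 libraries was checked for a library far from the other 3, for 105 groups in all, of which chance alone gives about 1 in 20. In 3 groups a library stood out. BECN1 in CTCF-B KO replicate 1 was at 10.86, with the others at 10.81. WDR45 in CTCF-A KO replicate 1 was at 7.84, with the others at 7.49 to 7.52. VMP1 in CTCF-B KO replicate 4 was at 12.02, with the others at 11.92. None of these came from WT.

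Members were also flagged where the changes against WT passed with opposite signs in the 2 knockouts and the difference between the knockouts passed too. This held for 3 members. The passing of that difference was part of the rule and is no added evidence, and how many of all genes meet the rule was not counted. CTCF-A KO minus CTCF-B KO was -0.65 for ULK2, -0.66 for GABARAPL2 and -0.68 for MAP1LC3B2. Each kept its sign and its call in that comparison under all 24 alternatives. The rises against WT in CTCF-B KO were less steady, as 11 of 21 alternatives lost that of MAP1LC3B2 and 3 lost that of ULK2.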

How the results depend on the processing

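Of the 17 members called in CTCF-A KO minus WT, 8 kept sign and call under all 24 alternatives, as did 12 of 17 under all 21 in CTCF-B KO minus WT and 8 of 27 under all 24 in CTCF-A KO minus CTCF-B KO. The alternatives were no filter, quantile normalization, equal library medians, 10 added on the linear scale, untrended variance, only the 8 libraries compared, the replicate block, the GC and length trend removed, both together, CTCF-A KO represented by replicate 4 alone, and each library left out. Both combinations of replicate 4 with the trend removed were chosen after seeing the data. The count higher in CTCF-A KO, 9, became 15 with equal medians, 14 with the trend removed, 14 with the trend removed and the replicate block, and 16 with the trend removed and without replicate 4. The count higher in CTCF-B KO, 13, became 20 in the fit of only 8 libraries, and the count lower, 4, became 2 with equal medians. The count higher in CTCF-A KO than in CTCF-B KO, 11, became 5 with replicate 4 only and 4 when the trend was removed too. Leaving out 1 library at a time gave 8 to 13 higher and 7 to 11 lower in CTCF-A KO minus WT, 10 to 17 higher and 2 to 5 lower in CTCF-B KO minus WT, and 10 to 13 higher and 15 to 17 lower in CTCF-A KO minus CTCF-B KO. Shares of all genes called were taken only as deposited and with the trend removed, so the other counts have none beside them. The cause of these changes was not tested.

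Some members changed sign, and the next values are those where the value as deposited or the alternative passed. In CTCF-A KO minus WT with the trend removed, with and without the replicate block, WIPI2 (0.00 as deposited) was at -0.12, ATG2A at -0.13, ATG9A at -0.15, VMP1 at 0.11, NBR1 at 0.15 and EPG5 at 0.25. With replicate 4 only, WIPI2 was at -0.12, ATG2B at 0.05, GABARAP at -0.20, NBR1 at 0.18 and EPG5 at 0.42. With replicate 4 only and the trend removed, WIPI2 was at -0.16, ATG2A at -0.17, ATG2B at 0.05, ATG9A at -0.12, GABARAP at -0.19, NBR1 at 0.23, TOLLIP at -0.02 and EPG5 at 0.41. Without replicate 4 and with the trend removed, WIPI2 was at -0.10, ATG2A at -0.12, ATG9A at -0.16, VMP1 at 0.12, OPTN at 0.10, NBR1 at 0.13 and EPG5 at 0.19.

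In CTCF-A KO minus CTCF-B KO with the trend removed, with and without the replicate block, ULK1 was at -0.14, ATG2A at -0.01, ATG9A at -0.01 and TOLLIP at -0.16. With replicate 4 only, ATG2B was at 0.09, GABARAP at -0.08, NBR1 at 0.03 and TOLLIP at -0.16. With replicate 4 only and the trend removed, ULK1 was at -0.06, ATG2A at -0.04, GABARAP at -0.05, NBR1 at 0.04 and TOLLIP at -0.24. Without replicate 4 and with the trend removed, ULK1 was at -0.17, ATG14 at 0.00, ATG2A at -0.00, ATG9A at -0.02, ATG3 at 0.03 and TOLLIP at -0.14. In CTCF-B KO minus WT there were none. Changes of sign where neither value passed were found for 13 members in CTCF-A KO minus WT (values under the alternatives -0.10 to 0.23, with TAX1BP1, at -0.29 as deposited, at 0.21 and 0.23 with replicate 4 only, as deposited or with the trend removed), for 2 in CTCF-B KO minus WT (0.01 to 0.08, ATG2B and ATG16L1) and for 4 in CTCF-A KO minus CTCF-B KO (-0.08 to 0.19).

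Replicate numbers did not pair the libraries: deviations of same-numbered libraries correlated between -0.32 and 0.43, and a library matched its own number best in 4 of 12 pairings. With the replicate block 8 members were higher in CTCF-A KO, ATG10 losing its call, and 12 in CTCF-B KO, MAP1LC3B2 losing its call. Where replicate 4 stands alone, its spread is taken from the other groups. Depth is unknown, so no count limit can be given.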
